A study of Mus musculus with 3 samples.

Results

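The transcription factors *Sox1*, *Pax6*, *Hes3*, *Six3*, *Rax*, *Lhx5*, *Zic1*, *Zic2* and *Zic5* were examined in the germ layers of E7.5 mouse embryos, which are endoderm, mesoderm and epiblast. They were chosen by symbol as factors of the early neural ectoderm, and all 9 were found among the 17633 genes with a read in any germ layer. Genes below RPKM 5 were kept, and RPKM is a read count scaled for gene length and library size. The embryos were of the ICR strain, and the labels and methods give no mutation or treatment for any of them. The embryonic region was freed of the decidua and Reichert's membrane, and the layers were parted by enzyme treatment and hand dissection. Each germ layer was 1 RNA-seq library from RNA pooled over many embryos, and the epiblast sample joined the neuroectoderm and the primitive streak. The libraries hold no replicate of any layer, so the spread between samples of a layer could not be measured from them. The qPCR and microarray measurements of the study were not analysed here.

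The neural plate arises from the anterior epiblast during gastrulation, when cells there escape the signals that direct their neighbours to mesoderm, endoderm or surface ectoderm. The SoxB1 protein Sox1 marks cells committed to the neural plate. Six3, Rax and Pax6 are homeodomain factors of the forebrain and the eye field, and Lhx5 is a LIM homeodomain factor of the anterior neural plate. Hes3 is a bHLH repressor of the Notch effector family that keeps neural progenitors undifferentiated. Zic proteins are zinc finger factors of the neural plate and its dorsal border, and some are also used in the primitive streak and in mesoderm.

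Reads on genes totalled 41.7 M, 40.8 M and 42.7 M for endoderm, mesoderm and epiblast, and the 9 factors together held 2228, 4917 and 11218 of these reads. Among genes with up to 20 reads, 68.9%, 68.8% and 66.4% of the counts were even in endoderm, mesoderm and epiblast, which is the pattern of counting both mates of a read pair. All 95% intervals below were therefore computed on read pairs, taken as the reads divided by 2 and rounded up, and they cover counting error only. The labels were compared with marker genes. The marker lists were chosen with earlier results of these data known, so this was not an independent check. All 7 mesoderm markers had their highest RPKM in mesoderm and all 7 endoderm markers in endoderm, and the latter fell from 224025 reads in endoderm to 3766 in mesoderm and 422 in epiblast. Of 7 epiblast markers, 5 were highest in epiblast, led by *Dnmt3b* and *Pou5f1*, while *Fgf5* and *Tdgf1* were not, and their RPKM in endoderm had a median of 13.2% of that in epiblast (5.83% to 105%). In mesoderm the median was 11.9% (0.656% to 125%), and no epiblast marker was without reads in any library.

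Of the 9 factors, 8 had their highest RPKM in epiblast and *Rax* had it in endoderm. Among all genes with a read, 35.7% were highest in endoderm, 33.2% in epiblast and 31.1% in mesoderm. The levels ranged widely, since *Zic2* reached an RPKM of 59.0 in epiblast and *Zic1* an RPKM of 0.231. Only *Zic2*, *Zic5*, *Hes3* and *Six3* passed RPKM>5 in any library, and 7 of the 9 passed RPKM>1, leaving out *Pax6* and *Zic1*. In epiblast the order of levels was *Zic2*, *Zic5*, *Hes3*, *Six3*, *Lhx5*, *Sox1*, *Pax6*, *Rax* and *Zic1*. The counting intervals of *Hes3* (5.51 to 7.11) and *Six3* (5.08 to 6.13) overlapped, as did those of *Pax6* (0.509 to 0.922) and *Rax* (0.339 to 0.857). Those of *Rax* and *Zic1* (0.138 to 0.381) overlapped as well, and the intervals of the other neighbours in this order did not.

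**Figure D1:**
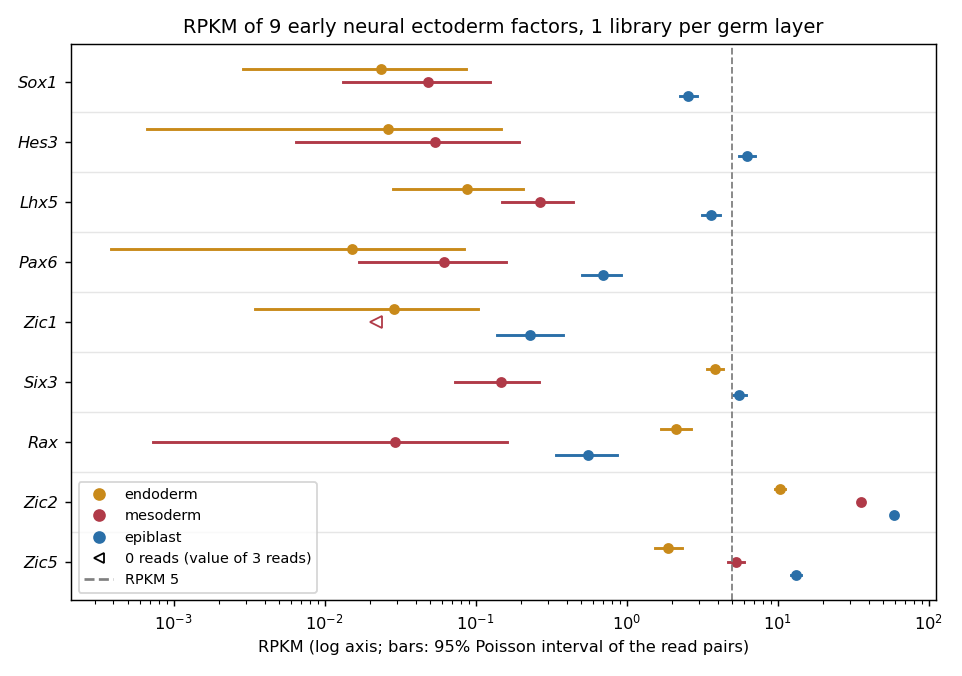
RPKM of the 9 factors (log axis) in the endoderm, mesoderm and epiblast libraries. Points are the single library of each layer, bars are 95% Poisson intervals of the read pairs, the open triangle marks 0 reads at the value of 3 reads, and the dashed line is RPKM 5. Epiblast is the highest layer in every row except *Rax*, where endoderm is at 2.13 and epiblast at 0.555.

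The levels fell into 3 shapes. *Sox1*, *Hes3*, *Lhx5*, *Pax6* and *Zic1* were found mostly in the epiblast library, which held 88.9% to 98.7% of their summed RPKM. *Six3* and *Rax* were shared between epiblast and endoderm and were low in mesoderm. *Zic2* and *Zic5* were present in all layers, in the order epiblast, mesoderm and endoderm. The promoters below show 1 gene of each shape for which the reference tables held a start site outside or nearly outside the gene's own exons, and *Rax* and *Zic2* had no entry in those tables. They are the 250 bases before the start in RefSeq on GRCm38.p6, 5′ to 3′ along the gene, with every CG dinucleotide in capitals. *Pax6* lies at chr2:105668646-105668895 (+ strand), *Six3* at chr17:85620584-85620833 (+ strand) and *Zic5* at chr14:122465659-122465908 (− strand).
Pax6: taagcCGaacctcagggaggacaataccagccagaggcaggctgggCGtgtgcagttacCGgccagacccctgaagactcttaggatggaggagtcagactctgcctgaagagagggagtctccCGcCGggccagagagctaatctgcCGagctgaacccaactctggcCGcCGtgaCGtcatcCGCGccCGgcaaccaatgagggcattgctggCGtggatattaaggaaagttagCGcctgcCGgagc
Six3: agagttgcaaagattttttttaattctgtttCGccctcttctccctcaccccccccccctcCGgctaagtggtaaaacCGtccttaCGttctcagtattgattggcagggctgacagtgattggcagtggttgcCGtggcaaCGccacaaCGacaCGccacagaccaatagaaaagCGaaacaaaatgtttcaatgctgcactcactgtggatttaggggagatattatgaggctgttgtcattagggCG
Zic5: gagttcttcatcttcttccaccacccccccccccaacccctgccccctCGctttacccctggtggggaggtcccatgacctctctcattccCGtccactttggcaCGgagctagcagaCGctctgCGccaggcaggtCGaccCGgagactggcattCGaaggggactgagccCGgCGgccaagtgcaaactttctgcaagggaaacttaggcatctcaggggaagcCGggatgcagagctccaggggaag

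The *Pax6* promoter window held 15 CG dinucleotides at a GC content of 60.8%, that of *Six3* 10 at 48.8% and that of *Zic5* 11 at 62.4%. The median of 32841 promoter windows was 6 CG dinucleotides at 52.4%. Of the 9 factors, 5 were in the promoter table, with 6 windows in all, 2 of them for *Pax6*. The motif CCAAT was found on either strand in 4 of the 6 windows, in 33.9% of all windows, and GGGCGG in 2 of the 6 and in 32.7% of all. TATAAA was in 0 of the 6 and in 12.4% of all. No motif separated the window of *Six3* from the first window of *Pax6*, since both held CCAAT alone of these 3, while that of *Zic5* held none of them.

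*Sox1*, a SoxB1 factor and an early marker of the neural plate, is encoded by 1 exon (chromosome 8, 12395295 to 12400126, + strand, GRCm38). It had 4, 8 and 442 reads in endoderm, mesoderm and epiblast. The epiblast value stood alone, with RPKM of 0.0238, 0.0485 and 2.56 in endoderm, mesoderm and epiblast. Its RPKM in epiblast was 108-fold that in endoderm (95% interval 29.5 to 896) and 52.8-fold that in mesoderm (20.4 to 196). Reads covered 78.0% of the gene length in epiblast and 4.46% in endoderm. The difference between the 4 and 8 reads of the other layers did not pass the Audic-Claverie exact test (adjusted p = 0.425). *Sox1* lies within the long noncoding *Sox1ot* (listed as *Gm5607*), which had 6, 9 and 7 reads in endoderm, mesoderm and epiblast and shares no exonic base with it.

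*Hes3*, the Notch-family repressor of neural progenitors (chromosome 4, 152285972 to 152291662, − strand), had 2, 4 and 489 reads in endoderm, mesoderm and epiblast. Its RPKM were 0.0263, 0.0535 and 6.26, so that it was the only factor of this shape above RPKM 5. The ratio of epiblast to endoderm was 238 (42.5 to 9477) and that of epiblast to mesoderm 117 (32.1 to 973). The width of the first interval follows from the 2 reads in endoderm. In a ranking of 13079 genes with at least 100 reads, only 2 genes, *Hes3* included, held as large a share of their RPKM in epiblast as the 98.7% of *Hes3*. For *Sox1*, with 97.3%, the number was 8.

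*Lhx5*, the LIM homeodomain factor (chromosome 5, 120431699 to 120441223, + strand), had 10, 30 and 425 reads in endoderm, mesoderm and epiblast. The RPKM were 0.0877, 0.268 and 3.64. Epiblast exceeded endoderm 41.5-fold (17.5 to 129) and mesoderm 13.6-fold (8.05 to 24.7). Mesoderm was at 3.06 times endoderm (1.06 to 10.8), which missed FDR<0.001 by the Audic-Claverie exact test (adjusted p = 0.00280). Reads covered 93.1% of its length in epiblast and 43.2% in mesoderm.

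*Pax6*, the paired-domain factor of the eye and forebrain (chromosome 2, 105668900 to 105697364, + strand), was found at a low level. It had 2, 8 and 94 reads in endoderm, mesoderm and epiblast, at RPKM of 0.0151, 0.0617 and 0.693. The low level did not hide the direction, since epiblast was 45.8-fold above endoderm (7.84 to 1849) and 11.2-fold above mesoderm (4.11 to 43.0). The difference between mesoderm and endoderm did not pass the Audic-Claverie exact test (adjusted p = 0.133).

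*Zic1*, a zinc finger factor of the dorsal neural tube (chromosome 9, 91358058 to 91365810, − strand), was the lowest of the 9 in epiblast. It had 4, 0 and 33 reads in endoderm, mesoderm and epiblast, which gave RPKM of 0.0287 in endoderm and 0.231 in epiblast. The ratio of epiblast to endoderm was 8.05 (1.97 to 74.0). A count of 0 in mesoderm allows up to 3 reads, or 6 reads if both mates count, so *Zic1* was at least 10.5-fold higher in epiblast than in mesoderm, or at least 5.26-fold with 6 reads, if the 33 epiblast reads are taken as exact. With the counting error of both libraries, the lower 95% limit of the ratio was 3.95. Reads covered 55.0% of the gene in epiblast, so they were spread along it. *Zic4*, a relative that overlaps it on the opposite strand, had 3 reads in epiblast and 0 in the other layers, and the pair shares 60 exonic bases.

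*Six3*, the homeodomain factor of the anterior forebrain (chromosome 17, 85613608 to 85629302, + strand), was found in 2 layers. It had 589, 22 and 877 reads in endoderm, mesoderm and epiblast, at RPKM of 3.84, 0.146 and 5.58. Epiblast was 1.45 times endoderm (1.25 to 1.69), below the Fold Change>2 criterion. Against mesoderm, epiblast was 38.1-fold higher (21.1 to 77.0) and endoderm 26.3-fold higher (14.5 to 53.3). Reads covered 77.3% of its length in endoderm and 93.0% in epiblast, so both libraries held reads along most of the gene. The antisense transcript *Six3os1* had 152, 18 and 150 reads in endoderm, mesoderm and epiblast, with the same low layer, and shares 106 exonic bases (1.95%) with *Six3*.

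*Rax*, the retinal and anterior neural fold homeobox gene (chromosome 18, 65928277 to 65939787, − strand), was the exception. It had 150, 2 and 40 reads in endoderm, mesoderm and epiblast, at RPKM of 2.13, 0.0290 and 0.555. Endoderm was 3.84-fold above epiblast (2.32 to 6.65), with an adjusted p of 1.41e-16 by the Audic-Claverie exact test. That test leaves out the variation between embryos. With an assumed coefficient of variation of 0.2 the exact test of edgeR also called this difference, and at 0.4 it did not. Endoderm was 73.6-fold above mesoderm (12.8 to 2943), and epiblast 19.1-fold above mesoderm (3.06 to 793). Reads covered 93.9% of the gene in endoderm and 77.5% in epiblast. *Rax* shares 1604 of its 5846 annotated exonic bases (27.4%) with the antisense gene *Raxos1*. The deposited length of *Rax* is 1687 bases, so how much of the shared part was counted is not known. Since no use of strand in counting is stated, reads of the pair in shared bases cannot be told apart.

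The endoderm level of *Six3* and *Rax* was set beside that of the other factors in the same library. As a percent of the epiblast RPKM, *Six3* stood at 68.9% and *Rax* at 384%. *Sox1* stood at 0.928%, *Hes3* at 0.419%, *Pax6* at 2.18% and *Lhx5* at 2.41%. *Zic1* stood at 12.4%, *Zic5* at 14.3% and *Zic2* at 17.5%. *Sox2*, a pan-neural and epiblast gene with 4479 reads in epiblast, was at 1.44%. Epiblast markers had a median of 13.2% there. In a bulk library, fewer cells of a type and less RNA per cell cannot be told apart.

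*Zic2* was the most abundant factor in every layer (chromosome 14, 122475435 to 122479852, + strand). It had 1280, 4329 and 7481 reads in endoderm, mesoderm and epiblast, at RPKM of 10.4, 35.7 and 59.0. Epiblast was 5.70-fold above endoderm (5.24 to 6.21) and mesoderm 3.45-fold above endoderm (3.16 to 3.77). The step from mesoderm to epiblast was 1.65-fold (1.57 to 1.74), under the Fold Change>2 criterion. In epiblast *Zic2* ranked 1299 of 16430 genes by RPKM.

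*Zic5* is the neighbour of *Zic2* (chromosome 14, 122456795 to 122465677, − strand), and the genes are transcribed away from each other from starts 9758 bases apart. *Zic5* had 187, 514 and 1337 reads in endoderm, mesoderm and epiblast, at RPKM of 1.88, 5.28 and 13.1. The order of the layers was that of *Zic2* at a lower level. Epiblast was 6.97-fold above endoderm (5.59 to 8.71) and 2.49-fold above mesoderm (2.15 to 2.89), and mesoderm was 2.80-fold above endoderm (2.19 to 3.57). Reads covered 64.6% of *Zic5* in epiblast, less than the 75.8% in mesoderm with fewer reads. Of its 50-base windows, 7.48% also occur in genes that do not overlap it. For each of the other 8 factors this share was no more than 0.69%. The annotated exons of *Zic5* hold 4889 bases, against a deposited length of 2383. The deposited counts are of uniquely mapped reads, and the bearing of such windows on the coverage was not tested.

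**Figure D2:**
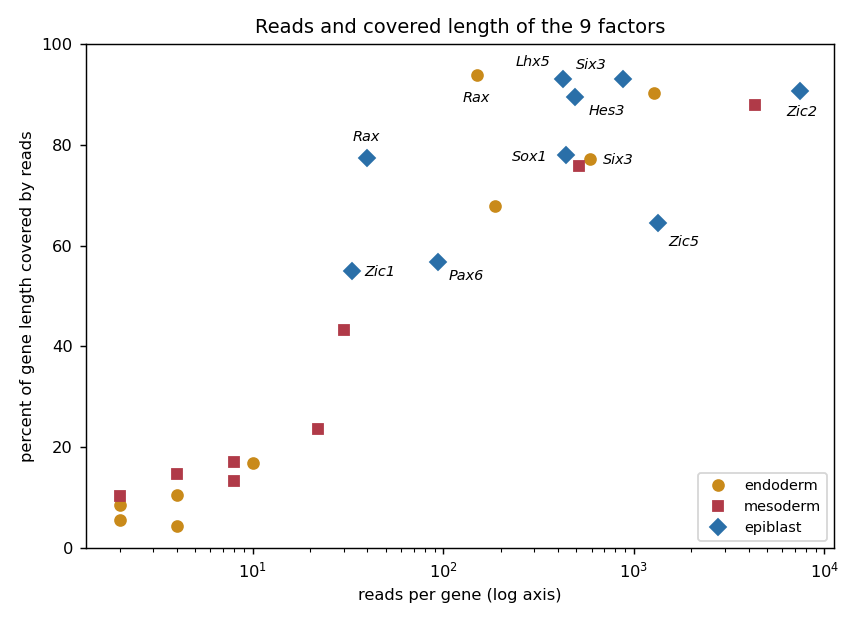
Percent of the gene length covered by reads against the reads per gene (log axis) for the 9 factors in endoderm (circles), mesoderm (squares) and epiblast (diamonds), without *Zic1* in mesoderm at 0 reads. *Rax* is at 93.9% with 150 reads in endoderm, while *Zic5* is at 64.6% with 1337 reads in epiblast.

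With the criteria of RPKM>5 in at least 1 library, Fold Change>2 and FDR<0.001, 3 of the 9 factors were higher in epiblast than in endoderm, *Hes3*, *Zic2* and *Zic5*. Of all genes tested, 4.58% were called higher in epiblast in that pair and 12.6% in either direction. The FDR was that of the Audic-Claverie exact test with Benjamini-Hochberg adjustment, which compares 2 libraries and not 2 tissues. Without the RPKM criterion, 7 factors were higher in epiblast, all but *Six3* and *Rax*, where 13.1% of all genes were (28.1% in either direction). *Rax* was then higher in endoderm, as were 15.0% of all genes. The exact test of edgeR kept this call of *Rax* at an assumed coefficient of variation of 0.2. At 0.4 it lost the calls of *Rax*, *Zic1*, *Zic2* and *Zic5*. *Zic1* lost its call without the RPKM criterion when the reads were halved. The median log2 ratio of epiblast to endoderm was 3.01 over the 9 factors and 0.02 over all genes.

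Against mesoderm, *Hes3*, *Six3* and *Zic5* were higher in epiblast by the same criteria, 3 of 9, where 2.45% of all genes were and 5.04% were called in either direction. Without the RPKM criterion, 8 of 9 were higher in epiblast, where 9.08% of all genes were (16.2% in either direction), and *Zic2* with its ratio of 1.65 was left. *Zic5* lost its call by the criteria under the exact test of edgeR with an assumed coefficient of variation of 0.2 (adjusted p = 0.0165) or 0.4 (adjusted p = 0.780), and with Fold Change>4. The median log2 ratio of epiblast to mesoderm was 3.67 over the 9 factors and -0.04 over all genes. Between mesoderm and endoderm, *Zic2* and *Zic5* were called, both higher in mesoderm, where 4.41% of all genes were (11.9% in either direction). Without the RPKM criterion these 2 were again higher in mesoderm (12.0% of all genes), and *Six3* and *Rax* were higher in endoderm (15.2% of all genes), in a pair with 27.2% of genes called either way. By edgeR at 0.2, *Zic2* kept its call between mesoderm and endoderm (adjusted p = 0.000198) and *Zic5* did not (adjusted p = 0.00364), and at 0.4 neither did. Against endoderm, epiblast kept *Hes3* at 0.4 (adjusted p = 9.22e-08) and lost *Zic2* and *Zic5* (adjusted p = 0.0466 and 0.0231). The 3 comparisons share libraries, so their counts are not independent of each other.

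**Figure D3:**
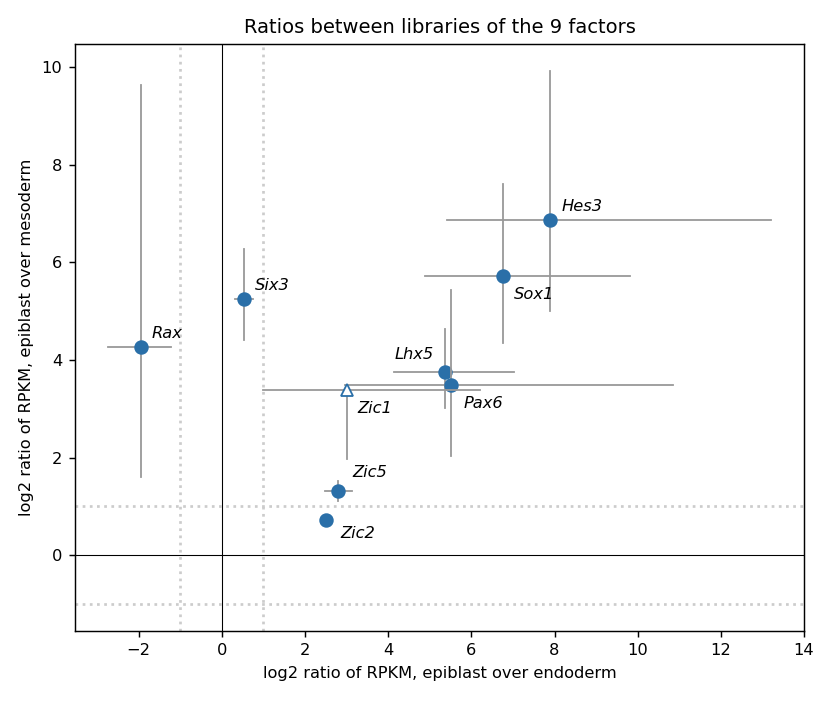
Log2 ratio of RPKM of epiblast over mesoderm (vertical axis) against epiblast over endoderm (horizontal axis) for the 9 factors. Bars are 95% intervals of the read pairs, dotted lines mark a 2-fold ratio, and the open triangle is the lower bound of *Zic1*, with 0 reads in mesoderm. All 9 lie above 0 on the vertical axis, and *Rax*, at -1.94, is the only one left of 0.

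The family relatives of these factors were highest in any of the layers. Of 28 relatives, epiblast was the highest layer for 16, mesoderm for 7 and endoderm for 5, and 15 passed RPKM>1. By the criteria, 6 were higher in epiblast than in endoderm and 3 the other way (8.02% of all genes were higher in endoderm). Between epiblast and mesoderm, 3 were higher in epiblast and 2 in mesoderm (2.58% of all genes were higher in mesoderm). Their median log2 ratio was 0.87 for epiblast to endoderm and 0.01 for epiblast to mesoderm.

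*Sox2* and *Sox3*, the other SoxB1 genes, had the shape of *Sox1* at a higher level. *Sox2* had RPKM of 0.616, 1.33 and 42.7 in endoderm, mesoderm and epiblast, and *Sox3* of 0.886, 0.927 and 24.3. The SoxB2 gene *Sox21* was highest in endoderm, at 2.57 against 0.795 in epiblast and 0.213 in mesoderm. *Pax2*, of the midbrain boundary and the otic region, was at 1.38, 0.186 and 1.67 in endoderm, mesoderm and epiblast.

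Other relatives of *Six3* had patterns unlike its own. *Six2*, a mesenchyme gene, had 4, 300 and 59 reads in endoderm, mesoderm and epiblast. *Six4* reached 7.45 in mesoderm and *Six5* 6.85 in epiblast, each within 1.23 times its next layer.

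Among the Lhx genes, *Lhx1*, of the axial mesendoderm and the nascent mesoderm, was at 15.3, 13.0 and 2.28 in endoderm, mesoderm and epiblast, with its lowest layer where *Lhx5* had its highest. *Lhx2*, of the eye field, was at 2.39, 2.71 and 1.76. Among the Hes genes, *Hes1* was highest in endoderm at 21.9. *Hes5*, a Notch target of neural progenitors, had 8, 11 and 61 reads in endoderm, mesoderm and epiblast, and *Hes6* and *Hes7* were within 1.15 times their next layer.

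In mesoderm, *Zic2* stood at 60.5% of its epiblast RPKM and *Zic5* at 40.2%. *Sox2* was at 3.10% there and *Sox1* at 1.89%, while the 7 epiblast markers had a median of 11.9%. Their part in the mesoderm level of *Zic2* and *Zic5* was not tested.

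**Figure D4:**
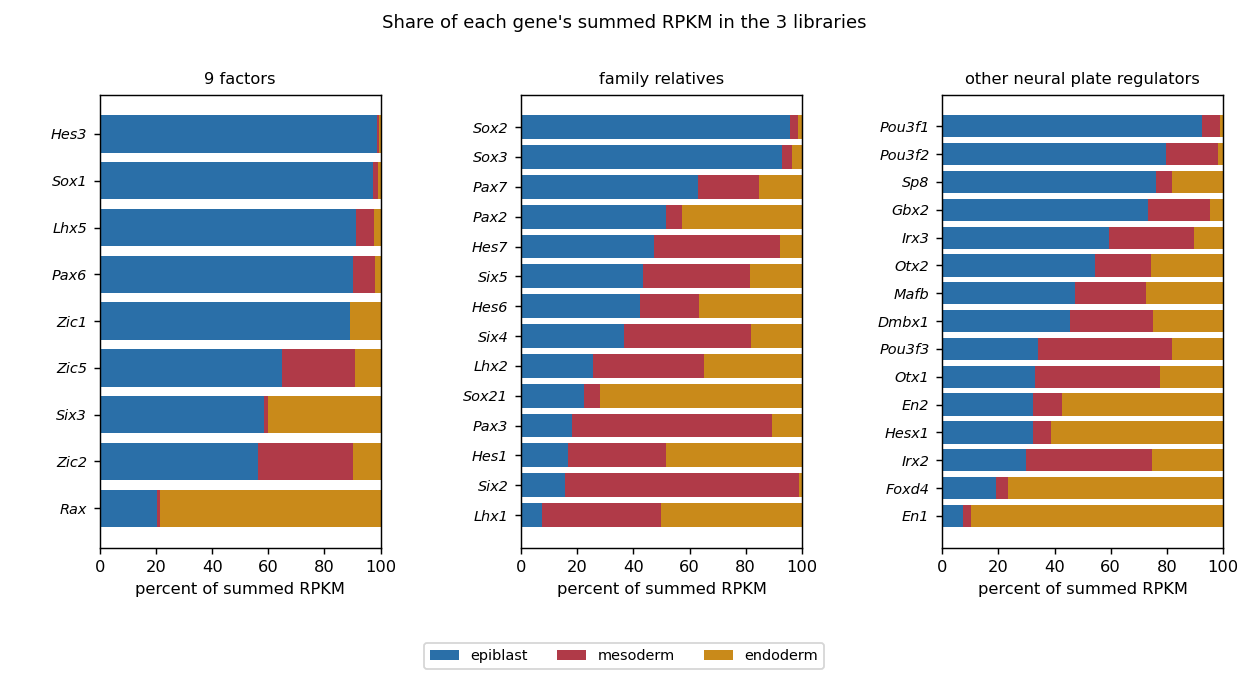
Share of each gene's summed RPKM (percent, horizontal axis) in epiblast, mesoderm and endoderm for the 9 factors, and for family relatives and other neural plate regulators with at least 100 reads. *Hes3* at 98.7% and *Sox1* at 97.3% have the largest epiblast shares of the 9 factors, and *Rax* at 20.4% the smallest.

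Other regulators of the neural plate were listed by region. Of 26 genes, 15 were highest in epiblast, 6 in endoderm and 5 in mesoderm, with 5 called higher in epiblast than in endoderm, 1 called the other way, and 5 called higher in epiblast than in mesoderm. Their median log2 ratio was 0.995 for epiblast to endoderm and 1.17 for epiblast to mesoderm. *Pou3f1*, a POU factor of the neural plate, had the largest epiblast share of those with at least 100 reads, with RPKM of 0.151, 0.983 and 14.2 in endoderm, mesoderm and epiblast. *Otx2* (27.4, 21.2 and 58.3), *Irx3* (8.96, 25.9 and 51.1) and *Gbx2* (2.43, 11.0 and 37.0), which pattern the neural plate along its axis, were present in all layers. *Sp8* was at 3.22, 0.984 and 13.4.

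*Hesx1* and *Foxd4* were, like *Six3* and *Rax*, at their lowest in mesoderm. *Hesx1*, a homeobox gene of the anterior neural plate and the anterior endoderm, was at 15.9, 1.63 and 8.41 in endoderm, mesoderm and epiblast. *Foxd4*, a forkhead gene of early neural ectoderm, was at 13.9, 0.814 and 3.47. *En1* was found mostly in endoderm, with 96, 3 and 8 reads. Genes such as *Emx2*, *Nkx2-1*, *Fezf2* and *Egr2*, which mark later brain regions, had an RPKM below 1 in every library.

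Neural progenitor genes were not confined to epiblast. Of 10, epiblast was the highest layer for 5, mesoderm for 4 and endoderm for 1, and 3 were called higher in mesoderm than in epiblast and 1 the other way. The cell surface gene *Prtg* was at 40.7, 125 and 50.9 in endoderm, mesoderm and epiblast, and the cadherin *Cdh2* at 19.4 in endoderm and 71.8 in mesoderm. The retinoic acid binding gene *Crabp2* was at 7.39, 53.8 and 109, and *Sox4* at 27.5, 45.4 and 38.8. The intermediate filament gene *Nes* was at 17.2 in epiblast and 12.9 in mesoderm.

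Of 12 neuronal genes, 11 had reads and 10 of these were highest in epiblast, with 3 called higher there than in endoderm and 3 than in mesoderm. *Elavl3*, a neuronal RNA-binding protein, had 8, 37 and 1955 reads in endoderm, mesoderm and epiblast, at 9.11 RPKM in the latter. *Tubb3* was at 2.42, 12.4 and 36.5, *Stmn2* at 8.66, 7.06 and 26.9, and *Map2*, listed by its older symbol *Mtap2*, at 0.933, 2.52 and 4.39. The proneural genes *Neurog1*, *Neurog2* and *Neurod1* had 59, 25 and 8 reads in epiblast.

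Genes of the primitive streak and of the surface ectoderm were set beside the 9 factors. Of 13 primitive streak genes, 10 were highest in epiblast, among them *T* (93.7, 74.8 and 229 in endoderm, mesoderm and epiblast), *Nkx1-2* (1.79, 6.64 and 67.8) and *Cdx1* (3.06, 15.9 and 48.7). *Tbx6* was at 38.7 in mesoderm and 34.1 in epiblast. Of 11 surface ectoderm genes, 6 were highest in epiblast, and the shares of *Tfap2a* (0.177, 0.621 and 12.2) and *Dlx5* (0.369, 0.308 and 11.6) came near those of *Sox1*. *Foxi2* had 2, 1 and 192 reads. *Msx2* and *Msx1* were highest in mesoderm and endoderm, at 31.7 and 18.3. Which of these cells held the reads of the 9 factors cannot be told apart in bulk RNA.

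Marker genes of the other layers had fewer reads in epiblast than in their own layer. *Apoa1*, *Ttr* and *Afp*, which mark visceral endoderm, had 39, 8 and 20 reads there, and *Foxa2* had 234 against 3895 in endoderm. The mesoderm gene *Hand1* had 2692 reads in epiblast and 17190 in mesoderm. Of 6 trophoblast markers 4 had reads, 2 of them highest in endoderm and 2 in epiblast. *Plac1* and *Esx1* had 886 and 478 reads in endoderm and 26 and 9 in epiblast. *Elf5* had 10, 12 and 31 and *Ascl2* 18, 74 and 112 reads in endoderm, mesoderm and epiblast, while *Tpbpa* and *Prl3d1* were not listed.

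The genes with the most similar shares were sought among 13071 other genes with at least 100 reads. The median shares of the 8 factors with at least 100 reads were 5.74%, 4.28% and 77.4% in endoderm, mesoderm and epiblast. The medians were taken layer by layer and do not sum to 100%, so every gene lies at some distance from them. None of the 8 factors had an epiblast share between the 64.7% of *Zic5* and the 90.0% of *Pax6*. The profile therefore stands for no single factor. The 5 genes nearest to this profile were *Dtx3l*, *Abcg1*, *Usp44*, *Mpp3* and *Ntrk2*, at distances of 7.32 to 7.69 percentage points. *Usp44*, a deubiquitinase gene, had RPKM of 2.53, 2.70 and 24.5 in endoderm, mesoderm and epiblast. *Ntrk2*, a neurotrophin receptor gene, had 37, 32 and 278 reads. Among the 13079 genes with at least 100 reads, 0.336% had an epiblast share as large as that of *Lhx5* (91.1%), 0.413% that of *Pax6* (90.0%), 2.91% that of *Zic5* (64.7%) and 4.50% that of *Six3* (58.3%). For *Zic2* (56.2%) it was 5.02% and for *Rax* (20.4%) 85.1%.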

How the data were processed

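The authors sequenced paired-end libraries of endoderm, mesoderm and epiblast, 1 per germ layer, from RNA pooled over embryos, and removed adapters and low-quality reads. The deposited counts are uniquely mapped reads per gene, not normalized. The deposited RPKM equals reads per gene length and per total of reads on genes (largest relative difference 2.03e-07), and the deposited coverage is the percent of the gene length with reads. The submitters' processing notes name TopHat, mm10 and mm9 without a role. The study's methods give TopHat and mm10 as the mapping for the splicing analysis, and do not give the mapping behind the gene tables. For these, the counting program, the annotation and the use of strand are not given in the sources used here.

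Genes absent from a table were given 0 reads. The tables were joined by symbol, and 124 of 127 listed genes matched, 2 by an older symbol. Genes were called with RPKM>5 in at least 1 library, Fold Change>2 and FDR<0.001, by the two-sided exact test of Audic & Claverie on the reads, with Benjamini-Hochberg adjustment over genes with a read in either library. For calls and medians, 3 reads or fewer entered the fold as 3 reads. Intervals of folds are exact binomial and those of levels Poisson, both on read pairs. The test takes each read as independent, which paired mates are not, so its p-values are too small. The members and all gene lists were chosen with earlier results of these data known. All 9 factors were named, family relatives with RPKM>1, and the up to 4 genes of highest RPKM in each list. The rule also named other genes whose fold over both other libraries reached the smallest of the 9, and of these a part is named. Low genes such as *Emx2* and the proneural genes were chosen after their values were seen, and some listed genes are not reported here by name.

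Positions and shared exonic bases are from GENCODE M21 on GRCm38, whose exons differ in length from the deposited genes. The quasi-likelihood test of edgeR could not be fitted with 1 library per layer. An alternative was its exact test, with the biological coefficient of variation set to 0.2 or 0.4, beside other criteria, scalings, pseudocounts and Benjamini-Yekutieli adjustment. Scripts were tested on simulated data. The software was R 4.3.3 with edgeR 4.0.16 and Python 3.11.15 with SciPy 1.17.1, numpy 2.4.6, pandas 2.3.3 and matplotlib 3.10.9. The splicing, microarray and qPCR data were not analysed here.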

Additional observations from a re-analysis of the deposited data

How the results depend on the processing

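The direction of all 108 recomputed ratios of the 9 factors was kept under TMM, the median of ratios and pseudocounts of 0.1 or 1. These settings could not have reversed it, so the kept direction is no test of the ratios. A pseudocount adds the same amount to both RPKM. On the log2 scale, TMM and the median of ratios shifted the ratios by less than the size of the smallest ratio. No factor changed its call under these settings or under Benjamini-Yekutieli adjustment. The counts of called factors, 3, 3 and 2 for epiblast against endoderm, epiblast against mesoderm and mesoderm against endoderm, rested on the RPKM criterion. With RPKM>1 they were 6, 5 and 4, and with none 8, 8 and 4. With no RPKM criterion and halved reads, an alternative chosen after seeing the data, they were 7, 8 and 4. For epiblast against mesoderm the count was 2 with Fold Change>4 and by the exact test of edgeR at either coefficient, each time without *Zic5*. With Fold Change>4 the count for mesoderm against endoderm was 0. By the exact test of edgeR with the coefficient at 0.2 it was 1, at 0.4 it was 0, and at 0.4 the count for epiblast against endoderm was 1. Without the RPKM criterion, also added after seeing the data, edgeR at 0.2 called 8, 7 and 3 and at 0.4 it called 4 (*Sox1*, *Pax6*, *Hes3* and *Lhx5*), 3 (*Sox1*, *Hes3* and *Six3*) and 2 (*Six3* and *Rax*). Over all genes, 2176, 861 and 2038 calls became 3561, 1841 and 3375 with RPKM>1, 4854, 2769 and 4676 with none, and 898, 334 and 936 with Fold Change>4. With edgeR they became 1235, 443 and 1199 at 0.2, and 331, 60 and 387 at 0.4.

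No paired analysis was possible because each germ layer had 1 library and the labels give no replicate numbers, and for the same reason no library was left out. No value here measures the variation between embryos or dissections. *Zic1*, *Pax6* and *Rax* rested on at most 33, 94 and 150 reads, and at this depth 0 to 10 reads in a layer cannot be told from a low level of expression. How cells carried over between dissected layers bear on these values was not tested.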
